A study of Rattus norvegicus with 6 samples.

Results

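Messenger RNA of secreted WNT modulators and Frizzled receptors was followed in the granulation tissue that formed in uncoated cellulose implants placed under the skin of rats. The set was defined by gene symbol and held 10 genes, of the 13336 genes that had a named probe on the array. They were the secreted Frizzled-related proteins Sfrp1, Sfrp2, Sfrp4 and Frzb, the secreted proteins Dkk3 and Wif1, the ligand Wnt5a, the receptors Fzd1 and Fzd2, and the matricellular protein Ccn4, earlier called Wisp1. Of these, 8 had 1 probe each. Sfrp1 and Fzd2 matched no probe by symbol or gene ID and are not analysed here.

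Each of the 6 arrays came from a different Sprague-Dawley rat aged 10 weeks. Rats 1, 2 and 3 gave the day 1 group, taken 24 hours after implantation, and rats 4, 6 and 7 gave the day 3 group, taken at 72 hours. All 6 rats carried the same kind of implant, and no tissue without an implant is among the arrays analysed here. The RNA was that of the whole implant, so a level reflects a mixture of cell types.

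WNT proteins are secreted, lipid-modified signals that bind Frizzled receptors on the cell surface. With the co-receptors Lrp5 and Lrp6 this binding stabilises beta-catenin, which acts with TCF and LEF factors in the nucleus. Other WNTs, Wnt5a among them, signal mostly without beta-catenin, through Frizzled receptors with Ror2 or Ryk, and affect cell polarity and movement. Secreted Frizzled-related proteins carry a cysteine-rich domain like that of the receptors and can bind WNTs outside the cell, and Wif1 binds WNTs through a domain of its own. In skin and connective tissue many of these modulators are products of fibroblasts.

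The RefSeq promoter table (build GRCr8) held 5 of the 10 genes. For Sfrp2 and Fzd1, which both rose, the 250 bases before the gene's start lay outside the annotated gene, and these are printed to show the sequence next to both rises. They lie at chr2:171387286-171387535 and chr4:30264824-30265073, both on the plus strand. Capitals mark CpG dinucleotides.
Sfrp2: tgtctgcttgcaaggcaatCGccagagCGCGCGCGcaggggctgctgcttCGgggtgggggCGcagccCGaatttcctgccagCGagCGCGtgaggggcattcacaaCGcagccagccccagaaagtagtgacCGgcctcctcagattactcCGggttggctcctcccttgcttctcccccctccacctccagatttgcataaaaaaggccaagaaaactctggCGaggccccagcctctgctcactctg
Fzd1: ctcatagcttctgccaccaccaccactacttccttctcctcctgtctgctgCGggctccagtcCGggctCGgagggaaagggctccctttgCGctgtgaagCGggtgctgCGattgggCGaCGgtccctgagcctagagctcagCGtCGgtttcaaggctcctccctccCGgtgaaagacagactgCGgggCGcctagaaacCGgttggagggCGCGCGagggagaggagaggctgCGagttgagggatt
The Sfrp2 window held 15 CpG dinucleotides and was 62.4% G and C, and the Fzd1 window held 18 and was 63.6% G and C. The medians over 33465 promoter windows of this length were 5 CpG dinucleotides and 51.2%. The 2 windows were searched on both strands for 6 motifs, no motif being contained in another. They were the TCF/LEF core CTTTGA, the AP-1 site TGANTCA, the TEAD site GGAATG, the TATA box TATAAA, the CCAAT box and the GC box GGGCGG. Of all windows, 13.9% held the TCF/LEF core, 6.34% the AP-1 site, 12.1% the TEAD site, 12.9% the TATA box, 34% the CCAAT box and 30.5% the GC box. The Fzd1 window had 1 match, a CCAAT box on the minus strand from 138 to 134 bases before the start. The Sfrp2 window had 0 matches to these letters.

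Levels below are log2 intensities, after a background correction that adds an offset of 50, and differences are day 3 minus day 1 on that scale. A level of 6.43 marks the estimated background limit, which corresponds to a deposited intensity of 101. Of the 8 members with a probe, 6 lay above the limit on all arrays. Of these 6, 5 rose at an adjusted p under 0.05 in the limma test across the 12085 tested probes. They were Sfrp2, Sfrp4, Wnt5a, Fzd1 and Ccn4. Over all 8632 genes tested, 13.6% rose and 10.8% fell, and of all tested probes 22.6% passed in either direction. Of the 7352 tested genes above the limit on all arrays, 1059 rose. The days did not overlap in the same 5 members, each higher at day 3, against 22.8% of all genes tested. A seventh member, Dkk3, reached the test through its day 3 values alone. It is given below with a bound and is not counted in support. No member fell, either at the adjusted threshold or at an unadjusted p under 0.05, and in a test per probe without moderation Sfrp4, Fzd1 and Wnt5a of these 5 passed. In this whole-tissue RNA, a change in the number of cells of a type and a change in RNA per cell cannot be told apart, for any of these genes.

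**Figure D1:**
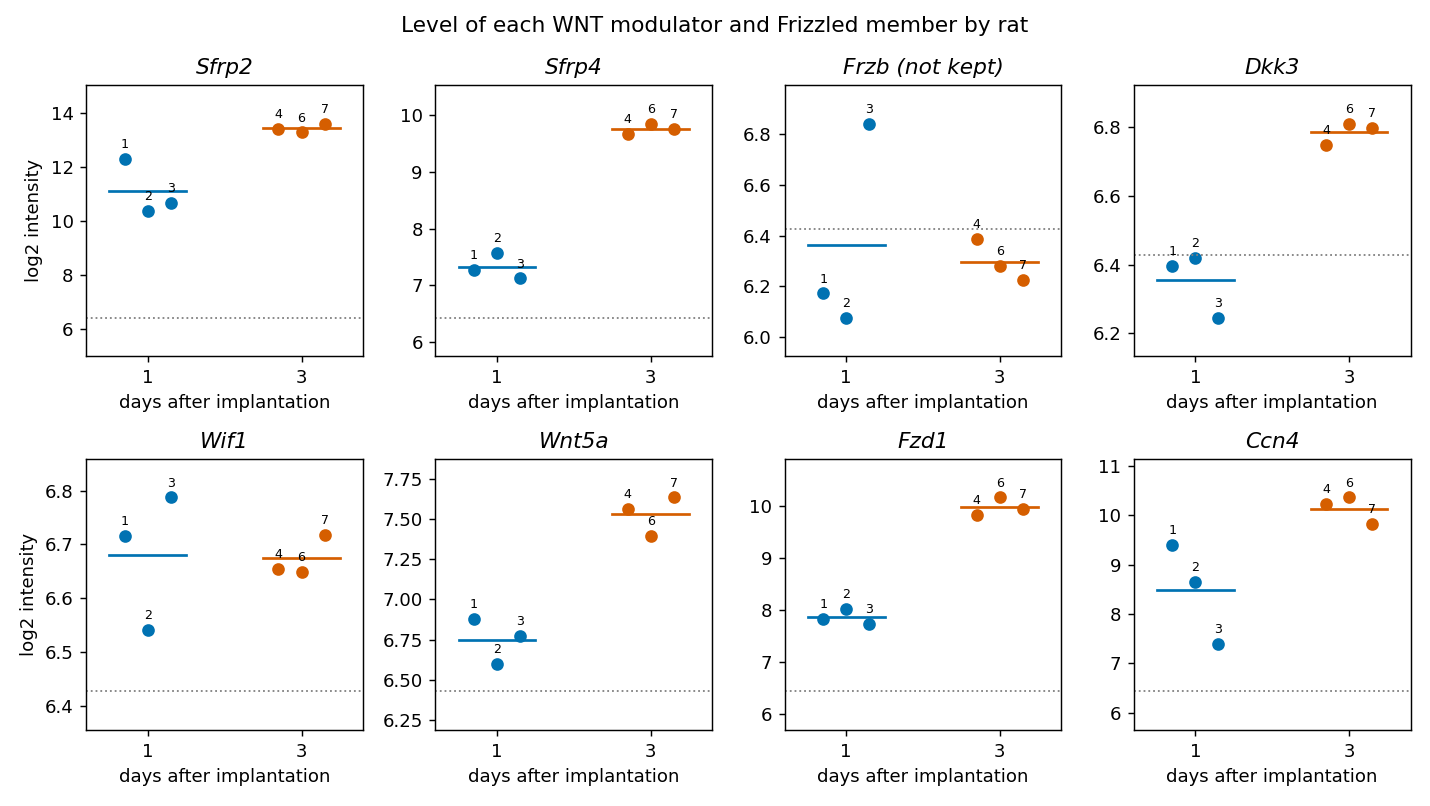
Log2 intensity of each of the 8 members with a probe, by day after implantation, with each point 1 rat (number beside it), the bar the mean of 3 rats and the dotted line the background limit of 6.43; each panel has its own vertical range. Sfrp2, Sfrp4, Dkk3, Wnt5a, Fzd1 and Ccn4 lay higher in all 3 day 3 rats than in any day 1 rat, while the days overlapped for Wif1 and Frzb.

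Among the secreted Frizzled-related proteins, Sfrp4 and Sfrp2 rose about 5-fold. Sfrp4, which binds WNTs and is known for its part in bone and connective tissue, had levels of 7.26, 7.57 and 7.12 in rats 1, 2 and 3. At day 3 it had 9.67, 9.85 and 9.76 in rats 4, 6 and 7. The 3 rats of each day lay close together and the days were far apart. The mean went from 7.32 ± 0.23 to 9.76 ± 0.09 (SD, n = 3 rats per day). The difference was 2.44 (SE 0.14, 95% interval 2.11 to 2.77, 5.43-fold, limma adjusted p = 0.000422), and 0.452% of all genes tested had a larger rise.

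Sfrp2, a secreted WNT binder made by fibroblasts of the dermis, had levels of 12.28, 10.37 and 10.65 in rats 1, 2 and 3. At day 3 the levels were 13.39, 13.27 and 13.59 in rats 4, 6 and 7. Rat 1 lay between rats 2 and 3 on one side and the day 3 rats on the other, so that the day 1 values spread widely. In the deposited intensities the day 1 rats ran from 1338 to 4980 and the day 3 rats from 9901 to 12361. The mean went from 11.10 ± 1.03 to 13.42 ± 0.16 (SD, n = 3 rats per day). The difference was 2.32 (SE 0.47, 95% interval 1.19 to 3.45, 4.98-fold, limma adjusted p = 0.0169). The call was lost without rat 2 (adjusted p = 0.057), rat 6 (0.0568) or rat 7 (0.0646) and in the test without moderation (0.0925). The difference ran from 1.95 without rat 2 to 2.91 without rat 1.

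Frzb, the secreted Frizzled-related protein first described in cartilage, lay above background on 1 of 6 arrays and was not among the genes tested. Its levels were 6.17, 6.08 and 6.84 in rats 1, 2 and 3, and 6.39, 6.28 and 6.23 in rats 4, 6 and 7. Rat 3 alone stood above the limit. With no filter on dim probes the difference was -0.066 (SE 0.20, limma adjusted p = 0.926).

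Of the other secreted proteins, Dkk3 went from below to above background and Wif1 did not pass the test. Dkk3, the most divergent member of the Dickkopf family, whose part in WNT signalling is debated, had levels of 6.40, 6.42 and 6.25 at day 1. At day 3 it had 6.75, 6.81 and 6.80. All day 1 values lay below the background limit and all day 3 values above it. Dkk3 was therefore at least 1.28-fold higher at day 3, taken against the limit, with measured means of 6.35 ± 0.095 and 6.79 ± 0.033 (SD, n = 3 rats per day). The fit gave a limma adjusted p = 0.021 for the measured values, which for day 1 are background. It was over the threshold without any one of rats 1, 2, 4, 6 and 7 (adjusted p from 0.0521 to 0.0837) and 0.0254 without rat 3.

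Wif1, the WNT inhibitory factor, had levels of 6.72, 6.54 and 6.79 at day 1 and of 6.66, 6.65 and 6.72 at day 3. Both days lay just above the limit on every array, and the values overlapped. The means were 6.68 ± 0.13 and 6.67 ± 0.038 (SD, n = 3 rats per day). The difference was -0.0070 (SE 0.10, limma adjusted p = 0.975), with a 95% interval from -0.25 to 0.24 that leaves room for a modest change either way.

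Wnt5a was the WNT ligand in the set. It had levels of 6.88, 6.60 and 6.77 in rats 1, 2 and 3, and of 7.56, 7.39 and 7.64 in rats 4, 6 and 7. The day 1 values stood a little above the background limit on every array, and the lowest day 3 rat exceeded the highest day 1 rat. The mean went from 6.75 ± 0.14 to 7.53 ± 0.12 (SD, n = 3 rats per day), a difference of 0.78 (SE 0.12, 95% interval 0.50 to 1.06, 1.72-fold, limma adjusted p = 0.00642). In the deposited intensities the day 1 rats ran from 112 to 133 and the day 3 rats from 183 to 214. Close to background a fold change on this scale understates the change.

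Fzd1, a seven-pass receptor for WNTs, rose more than 4-fold. Its levels were 7.83, 8.02 and 7.73 in rats 1, 2 and 3, and 9.83, 10.17 and 9.95 in rats 4, 6 and 7. The day 1 rats lay within a narrow band, as did the day 3 rats, and the bands were well apart. The mean went from 7.86 ± 0.15 to 9.98 ± 0.17 (SD, n = 3 rats per day). The difference was 2.12 (SE 0.13, 95% interval 1.81 to 2.44, 4.36-fold, limma adjusted p = 0.000523).

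The other Frizzled receptors with a tested probe were Fzd4, Fzd8 and Fzd9, named here after their values were seen, and none of them passed. Their differences were -0.039 (95% interval -0.27 to 0.19) for Fzd4, 0.00041 (-0.30 to 0.30) for Fzd8 and -0.062 (-0.33 to 0.20) for Fzd9. The 95% interval of Fzd1 lay above all 3 of these intervals. Fzd4, with levels of 6.54 to 6.74, lay just above the background limit, and Fzd9 was also dim, at 6.99 to 7.30. The size of any change that the Fzd4 and Fzd9 probes can show is therefore limited. Fzd8 was brighter, at 8.24 to 8.58. A difference between Fzd1 and the other receptors was not itself tested.

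Ccn4, a secreted matricellular protein first found as a target of WNT signalling in mouse cells, had levels of 9.40, 8.65 and 7.39 in rats 1, 2 and 3. At day 3 it had 10.23, 10.36 and 9.82 in rats 4, 6 and 7. Rat 3 was the lowest, and the day 1 rats spread over about 2 units while the day 3 rats lay close together. The mean went from 8.48 ± 1.01 to 10.14 ± 0.28 (SD, n = 3 rats per day). The difference was 1.66 (SE 0.48, 95% interval 0.52 to 2.79, 3.15-fold, limma adjusted p = 0.0494), just inside the threshold. The call was lost without rat 2 (adjusted p = 0.117), rat 4 (0.121), rat 6 (0.152) or rat 7 (0.0997), and under 5 of the other 9 settings. Without rat 3 the difference was 1.11 (adjusted p = 0.0145).

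**Figure D2:**
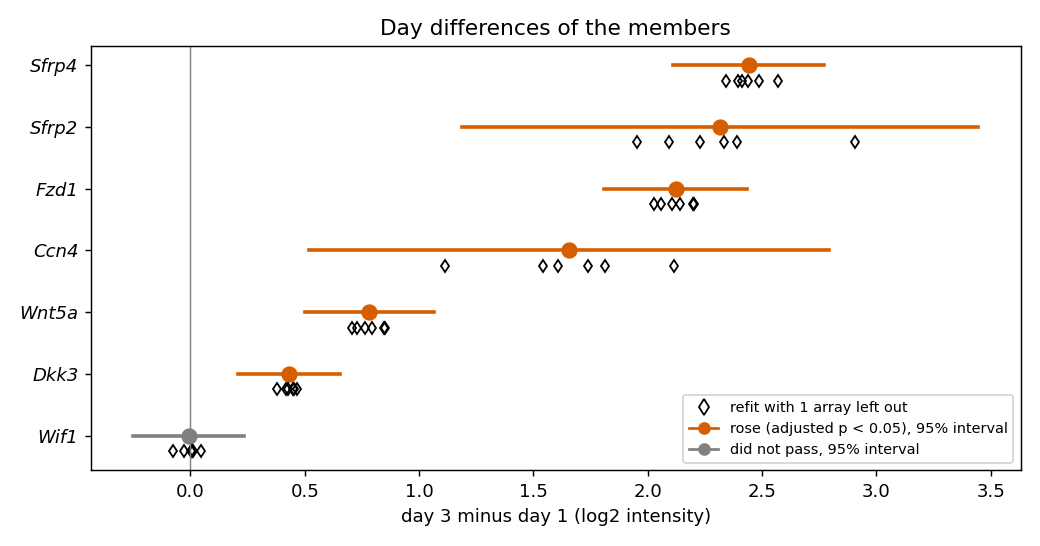
Day 3 minus day 1 in log2 intensity for the 7 tested members; the filled point is the fitted difference, the bar its 95% interval, and open diamonds are the refits that leave out 1 of the 6 arrays. Sfrp4 and Fzd1 had short bars and tightly grouped diamonds, Sfrp2 and Ccn4 had long bars, and Wif1 lay at 0. The Dkk3 difference is taken against day 1 values below background.

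The members thus varied in 2 ways across rats. Sfrp4, Fzd1 and Wnt5a had a day 1 SD of 0.23, 0.15 and 0.14, and kept their call in all 15 alternative settings, with adjusted p of at most 0.0173, 0.0177 and 0.0388. Sfrp2 and Ccn4 had a day 1 SD of 1.03 and 1.01, and in both rat 1 was the highest of the day 1 rats. In Sfrp2 rat 2 was the lowest of that day, and in Ccn4 it was rat 3.

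The genes whose levels followed those of a member most closely over the 6 arrays were named by Pearson's r, as a description. For Sfrp4 these were Ddah2 (r = 0.999), Fzd1 (0.998) and Tmem263 (0.997), and for Fzd1 they were Lhfpl6 (0.9996), Ddah2 (0.999) and Tspan6 (0.998). For Sfrp2 they were Tlcd4 (0.998), Homez (0.995) and Hmmr (0.992). With 6 arrays in 2 groups such values are common. For Sfrp4 468 genes reached an r of 0.95, for Fzd1 478 and for Sfrp2 127.

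The wider WNT pathway was described by 9 lists with 133 genes besides the members, of which 103 had a probe and 70 a tested one. Of these 13 rose, 2 fell and 55 did not pass, with a median difference of 0.025, against a median of -0.0081 over all genes tested. The shares across the whole array, for comparison, were 13.6% upward and 10.8% downward. Whether the lists differ from these shares was not tested. All but Ror2 of the 13 risers, 12 in number, were above background on every array. Of all 70 tested pathway genes, 53 were above it on every array. This limits the size of any change that the other probes can show. With all arrays 15 of the 70 pathway genes passed. Leaving out rat 2 gave 5, rat 6 gave 6, rat 7 gave 8 and rat 3 gave 25. The number was 24 with array weights and 4 without moderation.

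Of 16 WNT ligands besides Wnt5a with a probe, 7 were above background on at least 3 arrays and were tested. Only 4 of the 7 were above it on all arrays, which limits the size of any change that the other probes can show. In the limma test 0 passed, with 0 at an unadjusted p under 0.05 and 0 without moderation. The brightest by mean were Wnt4, with a difference of 0.061 (SE 0.25), and Wnt10b, with -0.16 (SE 0.10). Both tested genes of WNT maturation passed, in opposite directions. Wls, which carries WNTs to the cell surface, rose by 0.93 (SE 0.19, limma adjusted p = 0.0157), and Porcn, the acyltransferase that attaches their lipid, fell by 0.43 (SE 0.11, adjusted p = 0.0317). The Wls call was lost without rat 2, 6 or 7 (adjusted p up to 0.0636) and without moderation (0.075), and that of Porcn without any one of rats 1, 2, 4, 6 and 7 (up to 0.111), in the trend and robust model (0.0625) and without moderation (0.0627).

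Among Frizzled receptors and co-receptors outside the set 3 rose, 0 fell and 4 did not pass, and 0 had an unadjusted p under 0.05 toward day 1. Ryk, a receptor for Wnt5a, rose by 0.59 (SE 0.12, limma adjusted p = 0.0152), and Ror2, another, by 0.51 (SE 0.12, adjusted p = 0.0263). Ror2 was above background in 1 of 3 day 1 rats. Lrp5, the co-receptor of the beta-catenin branch, rose by 0.36 (SE 0.097, adjusted p = 0.0409). None of these 3 passed without moderation, and each was lost in some refits. The adjusted p reached 0.0576 for Ryk (lost without rat 1, 2 or 6), 0.102 for Ror2 (without rat 1, 2, 4 or 6) and 0.122 for Lrp5 (without any one of the 6 rats).

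Of 7 other tested inhibitors outside or at the cell surface 2 were above background on all arrays. This limits the size of any change that the other probes of this list can show. Among the 7, 1 rose, and it was Tpbg. This membrane protein, also called WNT-activated inhibitory factor, rose by 2.14 (SE 0.30, limma adjusted p = 0.0049, and 0.0503 without moderation). Its levels were 8.83, 8.82 and 7.72 in rats 1, 2 and 3, and 10.48, 10.69 and 10.63 in rats 4, 6 and 7. Rat 3 was again the lowest. Of the R-spondins, which enhance WNT signals, and their receptors 3 were tested. None passed in limma, at an unadjusted p under 0.05 or without moderation, and Lgr4 had a difference of 0.45 (SE 0.23) and Rspo1 of 0.014 (SE 0.096). Rspo1, with levels of 6.43 to 6.63, lay close to the background limit. Rspo3 was above it in 1 of 3 day 1 rats and 2 of 3 day 3 rats. This limits the size of any change that these 2 probes can show.

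Inside the cell, 2 of 12 tested genes of the beta-catenin pathway rose and 0 fell, with 1 at an unadjusted p under 0.05 toward day 1. Dact3, which binds Dishevelled and dampens WNT signalling, rose by 1.60 (SE 0.095, limma adjusted p = 0.000508). Ctnnbip1, which blocks the binding of beta-catenin to TCF factors, rose by 0.72 (SE 0.12, adjusted p = 0.00778). Of 8 genes of the nuclear complex 5 were above background on all arrays, which limits the size of any change that the other probes can show. In this list 1 gene fell and 0 rose, at either threshold. It was Tle4, a co-repressor, which fell by 0.90 (SE 0.21, adjusted p = 0.0244), a call lost without rat 1, 2, 6 or 7 (up to 0.0915) and without moderation (0.101).

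Of 9 tested genes that are known targets of beta-catenin 6 were above background on all arrays. Among the 9, 3 rose, 0 fell and 6 did not pass, with 2 at an unadjusted p under 0.05 toward day 1. Those 2, named here after their values were seen, were Myc and Cd44. Their differences were -0.46 (SE 0.16) for Myc and -0.52 (SE 0.20) for Cd44. Twist1, a transcription factor of mesenchymal cells, rose by 1.60 (SE 0.19, limma adjusted p = 0.00307). Ccn5, a relative of Ccn4, rose by 1.02 (SE 0.19, adjusted p = 0.0117, lost without rat 2 at 0.0506 and without moderation at 0.0652), and the G1 cyclin Ccnd1 by 1.00 (SE 0.23, adjusted p = 0.0244, lost without rat 2, 4, 6 or 7 at up to 0.0789 and without moderation at 0.103). These genes also respond to signals other than WNT. Axin2, the target most used to read this pathway, had a probe above background in 0 of 3 rats on either day and was not tested.

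In the branch for planar polarity and calcium 3 of 16 tested genes rose and 0 fell, with 1 at an unadjusted p under 0.05 toward day 1. Prickle1, a core protein of planar polarity, rose by 1.34 (SE 0.21, limma adjusted p = 0.00679, and 0.0538 without moderation). The kinase Rock2 rose by 0.52 (SE 0.11, adjusted p = 0.0173, lost without rat 1, 2, 6 or 7 at up to 0.0633) and the kinase Camk2g rose by 0.46 (SE 0.11, adjusted p = 0.0287, lost without rat 2, 4, 6 or 7 at up to 0.0979, in the trend and robust model and without moderation).

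**Figure D3:**
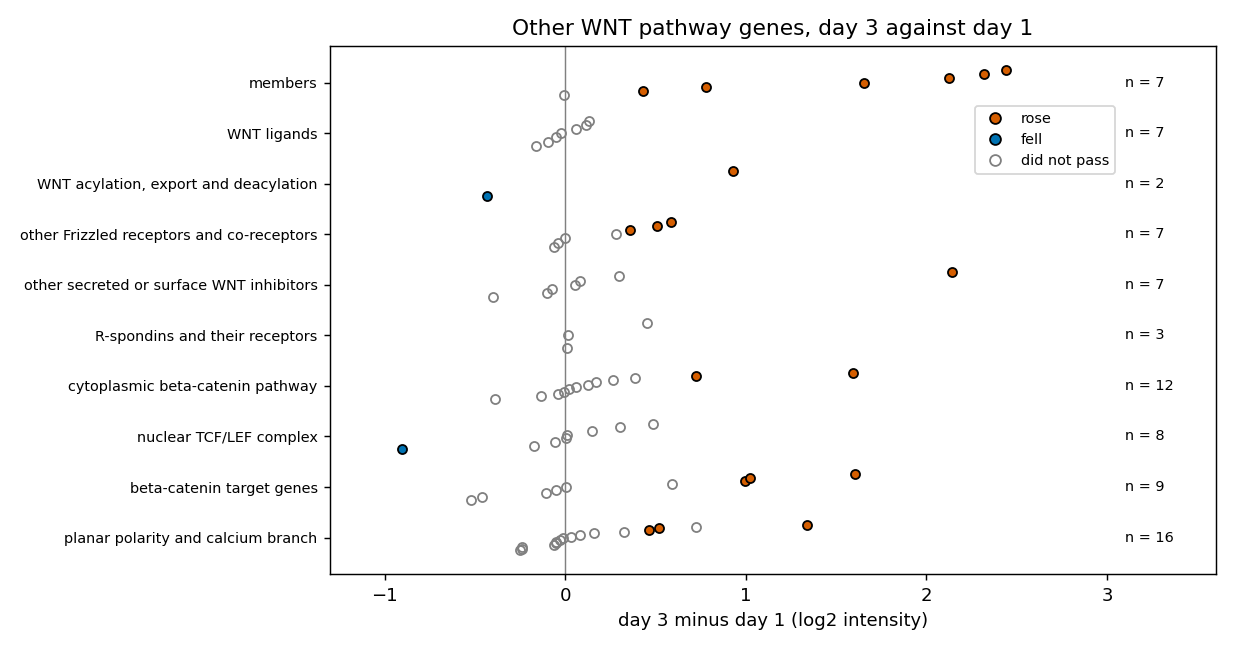
Day 3 minus day 1 in log2 intensity for the members and for each tested gene of 9 WNT pathway lists, 1 point per gene, with the number tested at the right; orange points rose, blue points fell and open points did not pass. A gene in more than 1 list appears in each. Outside the members, most points lie near 0, some of them from probes close to the background limit. The largest rises there are those of Tpbg, Twist1, Dact3 and Prickle1.

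Cell type markers moved between the days beside these genes, and their part in the results above was not tested. Of 14 tested fibroblast markers 12 rose and 0 fell, at either threshold, with a median of 2.27. Their summed intensity ran from 36374 to 43275 in the day 1 rats and from 119214 to 141328 in the day 3 rats, and none was below background on all arrays. Cthrc1, a secreted protein of activated fibroblasts, led them with 4.90 (SE 0.17).

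Of the other lists, 3 of 5 endothelial markers rose (Vwf by 1.61, SE 0.33), with sums of 4184 to 5820 at day 1 and 8098 to 11039 at day 3. Of 5 tested smooth muscle and pericyte markers Tagln rose by 0.97 (SE 0.22), and the list had sums of 4249 to 5129 and 6355 to 9604. Rgs5 of this list also passed upward. It was above background in 0 of 3 day 1 rats, so it reached the test through its day 3 values alone and is not counted. The 1 tested mesothelial marker, Msln, rose by 3.29 (SE 0.48). Of the 3 tested keratinocyte markers Pkp1, above background in 1 of 3 day 1 rats, rose by 0.89 (SE 0.17). Krt10 and Tp63 also passed upward. They were above background in 0 of 3 day 1 rats and, like Rgs5, are not counted. The sums of this list were only 212 to 238 and 340 to 400. All 6 tested neutrophil markers fell, with sums of 17447 to 40614 and 3901 to 7770, and Retnlg fell by 3.72 (SE 0.78). All 6 tested mast cell markers fell as well, with sums of 4506 to 7987 and 1004 to 1659. Of these, 4 were above background on all arrays, while Fcer1a and Ms4a2 were above it in only 1 of 3 day 3 rats. Hdc, the brightest of them at day 1, fell by 3.73 (SE 0.50). Of 4 macrophage markers 1 rose, Cd163 by 0.88 (SE 0.12), and 1 fell, Cd14 by 1.97 (SE 0.25). Mrc1 and Adgre1 did not pass. The macrophage sums of 13582 to 18400 and 4843 to 8780 were mostly Cd14. The mean log2 level of the 4 overlapped between the days, from 9.73 to 10.01 at day 1 and 9.44 to 10.33 at day 3. Of 6 lymphocyte markers none passed at the adjusted threshold, at an unadjusted p under 0.05 or without moderation, and Cd8a had a difference of -0.47 (SE 0.21). The call of Cd163 was not followed through the refits. Of the other calls named here, Vwf was lost without rat 6 or 7 and Tagln without rat 2, 6 or 7. Pkp1 was lost without rat 2 and Retnlg without rat 1, 2, 6 or 7. These 4 and Msln were also lost without moderation, with adjusted p from 0.0551 to 0.0996. Below background on all arrays were Cdh5 (endothelial), Cnn1 (smooth muscle), Krt1 (keratinocyte), Kit and Mcpt1 (mast cell), Marco (macrophage) and Ms4a1 (lymphocyte).

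Rat 3 stood apart from rats 1 and 2 within day 1. It correlated with them at r = 0.956 and 0.963 across probes, against 0.991 between rats 1 and 2 and 0.988 to 0.992 among the day 3 rats. The 8 tested adipocyte markers were higher in rat 3 than the mean of rats 1 and 2 by a median of 3.55, and their sum was 99055 in rat 3 against 16594 to 31755 in the other rats, with Lep below background on all arrays. None of them passed between the days, at the adjusted threshold, at an unadjusted p under 0.05 or without moderation, and Lpl, the brightest, had a difference of 0.096 (SE 0.46). Rat 3 minus the mean of rats 1 and 2 was -1.63 for Ccn4, -0.67 for Sfrp2, -0.30 for Sfrp4, -0.19 for Fzd1 and 0.032 for Wnt5a. Without rat 3, Sfrp2, Sfrp4, Wnt5a, Fzd1 and Ccn4 still passed.

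Skeletal muscle markers split the rats in another way. Their sum was 11233, 10485 and 10316 in rats 2, 3 and 6, against 705, 572 and 592 in rats 1, 4 and 7, and Myh4 and Myh2 were below background on all arrays. None of the 5 tested passed between the days, at either threshold or without moderation, and Acta1, the brightest, had a difference of -1.91 (SE 2.18). Rats 2 and 3 were also the lower of the day 1 rats in Sfrp2 and Ccn4, and rat 6 was the lowest of the day 3 rats in Sfrp2 and the highest in Ccn4.

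**Figure D4:**
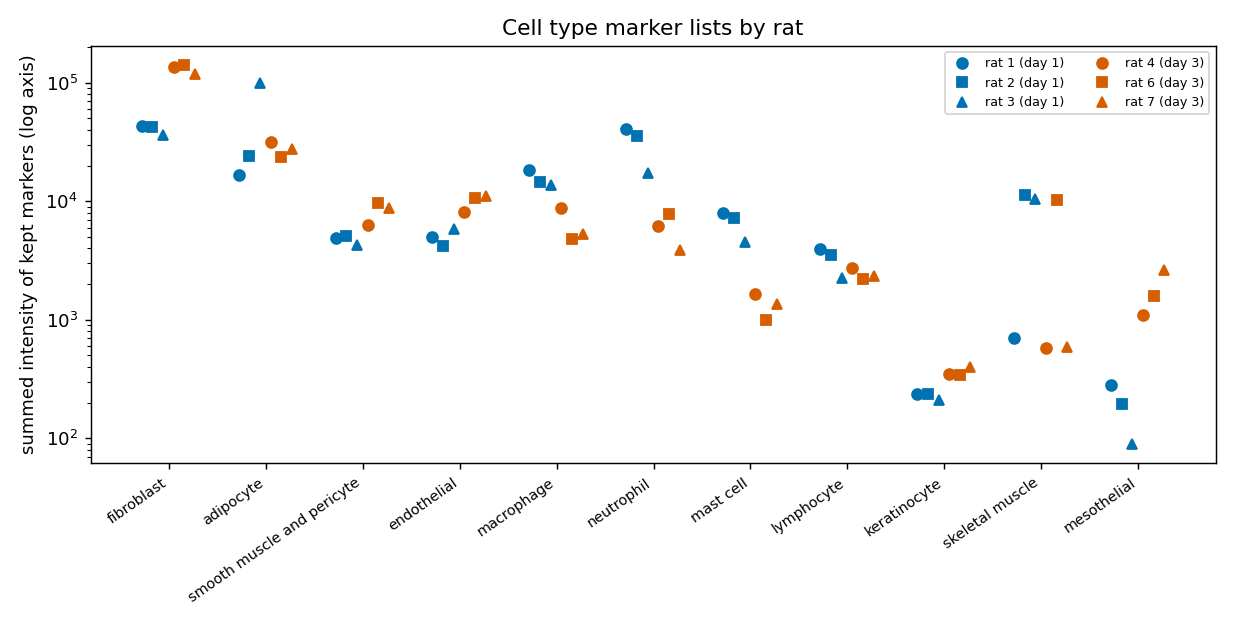
Summed intensity of the tested markers of each cell type list in each rat, on a log axis, with day 1 rats in blue and day 3 rats in orange. Fibroblast sums lie higher at day 3 and neutrophil and mast cell sums lower, rat 3 stands alone in adipocyte markers, and rats 2, 3 and 6 stand apart in skeletal muscle markers.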

How the data were processed

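RNA of 6 implants, 1 array per rat, was measured on Illumina rat BeadChips. Per the labels' protocols, 100 ng of total RNA was amplified and biotin-labelled. The values used are the authors' deposited intensities, quantile-normalised on the linear scale, as their shared distribution shows (median 104 and range 60.6 to 45354 on each array). Limma is named in the submitters' processing notes. How the scanner's background was treated is not given in the sources used here. A second table with 6 signal and 6 detection columns (12 in all) names no sample and was not used.

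Intensities were corrected with normexp (offset 50), quantile-normalised and put on the log2 scale. The background limit, 101, is the 95th percentile of a normal distribution with the mode of the deposited values (86.2) and the spread below it. Of 22517 probes, 12085 lay above it on at least 3 arrays and were tested. Of all probes 13787 carried 1 gene symbol, 0 several and 8730 none in the annotation used here, and 13747 gene IDs matched RefSeq. Each gene is represented by its tested probe of highest mean, and no member had a second one.

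Each probe was fitted with limma 3.58.1 (R 4.3.3; lmFit, eBayes, two-sided) with day as the 1 coefficient and Benjamini-Hochberg adjustment over all tested probes, threshold 0.05. The pipeline was tested on simulated data. The number of arrays limits the precision, and an exact permutation test of 3 against 3 cannot go below 0.1, so none is given. Labels give separate rats, with no rat shared between days.

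The members and lists were chosen with earlier results of these data known. Named are all members, up to 4 genes per pathway list that passed with the largest differences (or the 2 brightest), 1 gene per marker list, the 3 genes most like each of the 3 members that changed most, and exceptions where stated. Alternatives were no background correction, offset 16, cyclic loess, no filter, a stricter filter (all 6 arrays over the 99th percentile), eBayes with trend and robust, weights per array, no moderation, dim values at the limit, and each array left out.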

Additional observations from a re-analysis of the deposited data

How the results depend on the processing

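Each of the 6 tested members that passed, Dkk3 included, kept its direction in the alternatives run. Sfrp4, Fzd1 and Wnt5a passed in all 15, Sfrp2 in 11 of 15, Dkk3 in 9 of 14 (it was not kept by the strict filter) and Ccn4 in 6 of 15. Wif1 changed sign in 5 of 15 and passed in none. With 1 array left out, 3 to 6 members passed. Dkk3, which is not counted in support, was among them only without rat 3. The probes past the test then numbered 1310 to 3798 (777 to 1954 higher at day 3 and 512 to 1844 higher at day 1). The other WNT pathway genes past it numbered 5 to 25 (5 to 18 rose and 0 to 7 fell). Without moderation 1061 probes passed, 680 upward and 381 downward, with 4 pathway genes risen and 0 fallen, where 2728 probes, 1522 upward and 1206 downward, had passed with moderation. With array weights 1960 probes fell, and 24 pathway genes passed, of which 6 fell. The pathway genes that fell were 4 with cyclic loess and 1 with the trend and robust model. The causes were not tested. No paired analysis was possible because the days share no rat and no replicate number. Dkk3, Frzb, Wif1 and Wnt5a lay near background, which limits the size of any change that their probes can show. No member had a second tested probe, so that alternative gave no value.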
